A study of Mus musculus with 18 samples.

Results

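The genes described here encode enzymes and regulators of glycolysis, gluconeogenesis, glycogen metabolism and pyruvate oxidation. They are 44 named genes of 21887 protein-coding genes on the mouse chromosomes. Each was examined for peaks of BMAL1, a transcription factor of the circadian clock, whose centre lay inside the gene or within 10 kb of either end. The names were given as a list of genes by function, which was drawn up with earlier results of these data known, so the shares below describe the genes and are not independent evidence of an excess. The peaks came from ChIP-seq, in which formaldehyde-fixed chromatin is pulled down with an antibody and sequenced, here a chicken antibody against the N-terminal domain of BMAL1. The organs were the liver, kidneys and heart of wild type mice of strain C57BL/6, aged 3 to 6 months, with 3 mice per organ. These animals had free access to food and water in a cycle of 12 h light and 12 h dark, and their organs were taken at ZT06, which is 6 h after lights on. For each organ the authors pooled 3 ChIP and 3 input libraries into 1 peak list. Liver had the longest list, with 4813 peaks, followed by kidney with 4034 and heart with 2519. The source labels of the heart input libraries name kidney, against their titles and tissue labels. The heart list could not be made without them here, so every heart value below carries that doubt.

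Glycolysis breaks glucose down to pyruvate, and gluconeogenesis runs the path in reverse through a few enzymes of its own in liver and kidney. Glycogen is the stored form of glucose, built and degraded by separate enzymes whose activity is set by phosphorylation. BMAL1 binds DNA as a partner of CLOCK at the E-box, a short palindromic sequence, and blood glucose, liver glycogen and the expression of many of these enzymes are known to follow a daily cycle. The peaks came from whole organs at 1 time of day, so a site bound in few cells and a site bound weakly in many cells cannot be told apart. Each peak has a whole-number score from the authors, on an unstated scale, so scores and ranks are read only within a list. Rank 1 is the highest score. The pooled lists hold no value for a single library, so no difference between organs was tested here, and a gene without a peak may hold a site that missed the authors' threshold.

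Of the 44 genes, 30 had a peak in at least 1 list (68.2%), against 30.7% of all protein-coding genes. A liver peak lay at 21 genes (47.7%, exact 95% interval 32.5 to 63.3%, for counting error only), against 18.1% of protein-coding genes. A kidney peak lay at 17 genes (38.6%, 24.4 to 54.5%), against 18.0%. A heart peak lay at 13 genes (29.5%, 16.8 to 45.2%), against 11.5%. The share of these metabolic genes was thus 2.64 times the share of all protein-coding genes in liver, 2.14 times in kidney and 2.56 times in heart, by counts and with no test. Peaks of all 3 lists lay at 7 genes (15.9%), against 4.35% of protein-coding genes. They were Gpi1 (whose peaks lie nearer to another gene, Garre1), Pfkl, Pfkfb3, Ldha, Pcx, Gbe1 and Ppp1r3c. At all of these except Pfkl, peaks of the 3 lists overlapped in a region common to all organs. Such a region lay at 13.6% of the 44 genes and at 3.09% of protein-coding genes.

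The remaining genes with peaks split by organ. Peaks lay in the liver list only at 8 genes (18.2%, against 7.0% of protein-coding genes), namely Gckr, Aldoc, Pgk1, Pklr, Pck2, Gys1, Gys2 and Pygl. Peaks in kidney only were found at Aldoa, Gapdh, Ldhb and Ugp2 (9.09%, against 6.68%). Peaks in heart only were found at Hk1, Pfkm, Pfkp and Eno1 (9.09%, against 4.3%). Liver and kidney without heart held peaks at 5 genes, Eno3, Pck1, G6pc, Pdk1 and Pdk2 (11.4%, against 5.42%). Pkm had peaks in kidney and heart (2.27%, against 1.57%) and Fbp1 in liver and heart (2.27%, against 1.32%). No peak lay at 14 genes. The patterns with a single organ rest on 8, 4 and 4 genes and on lists of unlike length, so the organs are not ordered by them.

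**Figure D1:**
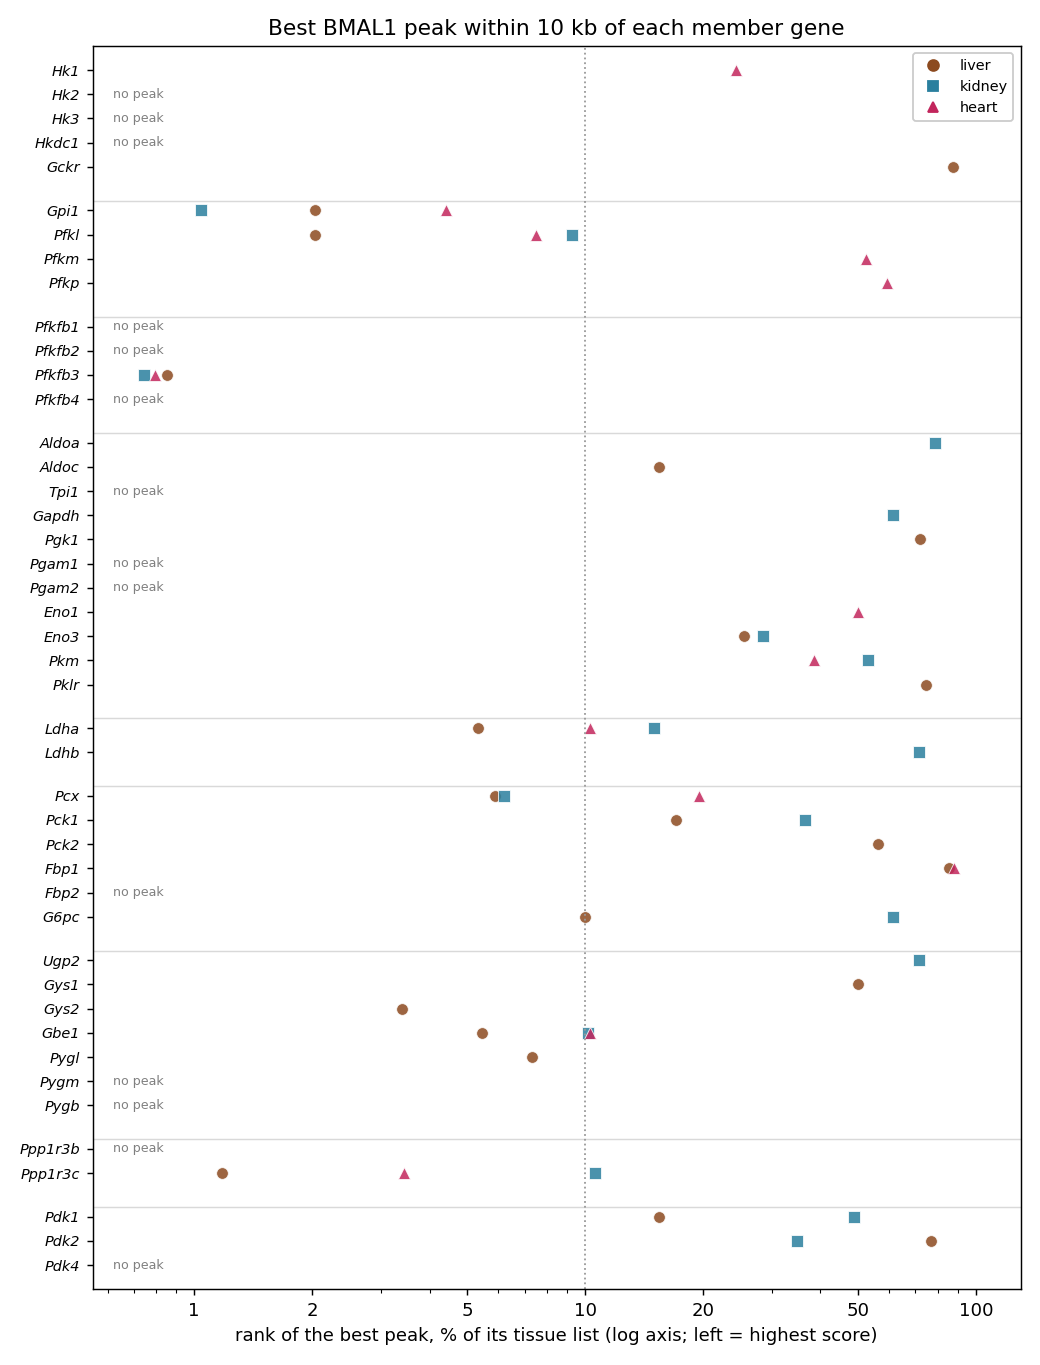
Rank of the best BMAL1 peak at each of the 44 genes, as a percentage of the length of its own list (log axis, left is the highest score); circles are liver, squares kidney and triangles heart, and the dotted line marks 10%. Grey lines separate the role groups. Pfkfb3 lies furthest left in all 3 organs, and 14 genes are marked as having no peak.

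The size of the window changed the shares of both groups. With peak centres inside the gene only, 29.5% of the 44 genes had a liver peak, 25.0% a kidney peak and 22.7% a heart peak, against 10.2, 9.65 and 6.83% of protein-coding genes. With 50 kb on either side they were 61.4, 59.1 and 38.6%, against 34.0, 33.1 and 22.7%. Just inside the 10 kb window lay a liver peak at Pck2 (9.83 kb beyond the gene) and a heart peak at Eno1 (9.11 kb). Just outside it lay a liver peak at Pdk4 (12.2 kb, score 20, rank 4329) and a heart peak at Pygb (13.9 kb, score 75, rank 251).

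**Figure D2:**
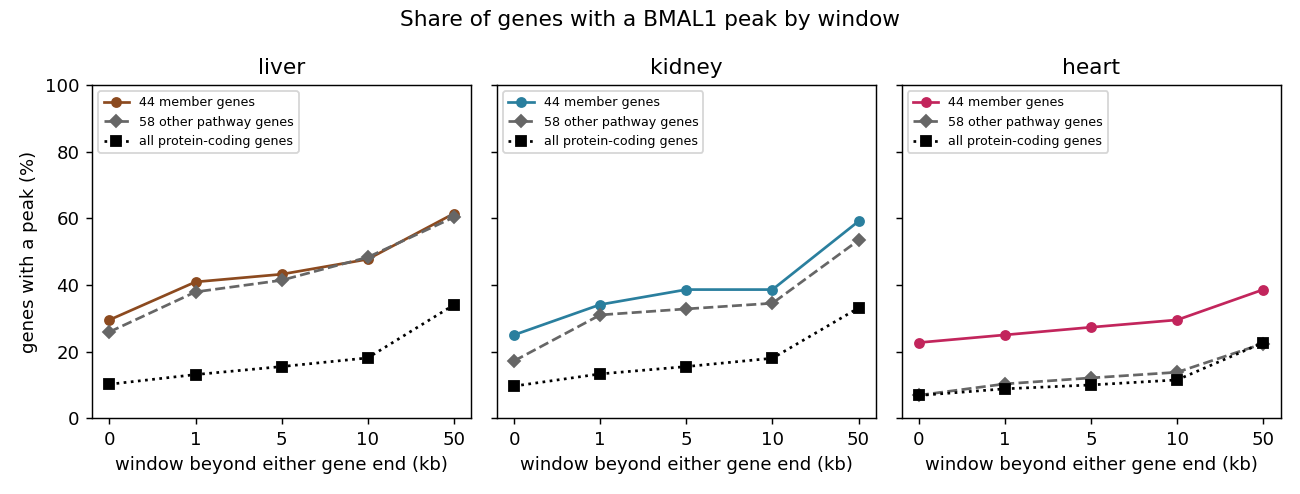
Percentage of genes with a peak in liver, kidney and heart (3 panels) as the window beyond the gene ends grows from 0 to 50 kb (categories, not to scale). Solid lines are the 44 genes, dashed lines 58 other genes of the same and adjoining pathways and dotted lines all protein-coding genes. The solid line lies above the dotted line at each window in each panel, and in heart the dashed line stays near the dotted line.

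Long genes offer a longer window, and the median length was 21648 bp for these genes and 17169 bp for all protein-coding genes. All protein-coding genes were therefore divided into 4 equal groups by length. A liver peak lay at 8.77% of the shortest genes (up to 5670 bp) and at 25.5% of the longest (from 44341 bp). In the second length group 8 of 15 metabolic genes had a liver peak (53.3%, against 17.2%), and in the next longer group 7 of 14 did, against 20.9% of all genes. The share of the metabolic genes was above that of all genes in each length group of each list. The smallest gap was in heart in the second group (2 of 15, 13.3%, against 9.34%). The length groups hold 5 to 15 of the metabolic genes, so single genes move these shares strongly.

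**Figure D3:**
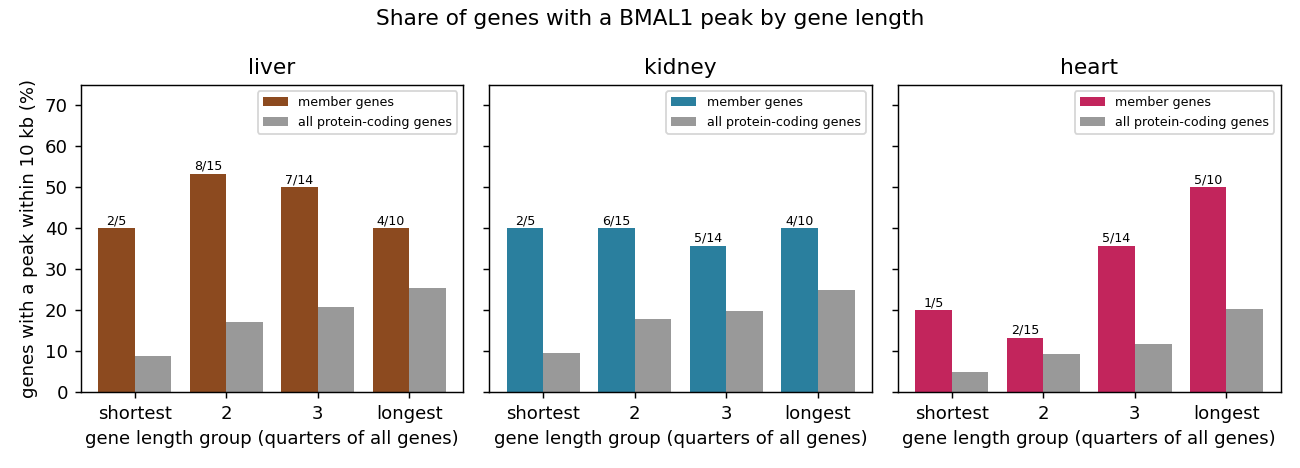
Percentage of genes with a peak within 10 kb in liver, kidney and heart (3 panels), by gene length group. Coloured bars are the metabolic genes, with their counts above, and grey bars all protein-coding genes. Coloured bars exceed grey bars in each group, and grey bars rise with length.

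By median rank, the peaks at these genes also stood higher than peaks at genes in general. The windows held 39 liver, 29 kidney and 18 heart peaks, which formed 61 distinct regions. The median rank stood at 27.5% of the list length in liver, against 45.8% for all peaks within 10 kb of a protein-coding gene. The kidney value was 34.9%, against 46.5%, and the heart value 22.0%, against 44.6%. A peak from the top 10% of the liver list lay at 9 genes (20.5%, against 2.75% of protein-coding genes). For the kidney and heart lists such a peak lay at 4 genes each (9.09%, against 2.44 and 1.54%). Gpi1, Pfkl and Pfkfb3 were among these genes in all 3 lists, though the peaks at Gpi1 lie nearer to Garre1. Such shares of genes also rise when more genes have any peak. Counted by peak, 28.2% of the liver peaks at the metabolic genes were in the top 10%, against 11.2% of all peaks near protein-coding genes. The heart share was 22.2%, against 11.2%. The kidney share was 13.8% (4 of 29 peaks), close to the background of 10.8%. Of the peaks at the metabolic genes, 53.8% of the liver, 37.9% of the kidney and 55.6% of the heart peaks overlapped no peak of another organ. The same shares over all peaks near protein-coding genes were 63.1, 56.6 and 62.8%. Of genes with any peak, 8 of 30 metabolic genes held 3 or more distinct regions (26.7%), against 10.2% of protein-coding genes. This comparison was not divided by gene length, and it includes regions nearer to another gene. Of the metabolic genes counted here, Pfkfb3, Pcx, Gys2 and Gbe1 are in the longest length group.

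Transcription start sites were taken from RefSeq, which listed 64 starts for 42 of the 44 genes (none for Gys2 and Ppp1r3b). A peak of any organ lay within 1 kb of a listed start at 19 of these 42 genes (45.2%), against 13.3% of protein-coding genes with a listed start. Counted by peak, 14 of 36 liver peaks at the metabolic genes lay that close to a start (38.9%, leaving out the 3 peaks at Gys2, which has no listed start), against 29.7% at all protein-coding genes. The shares were 37.9% against 38.2% in kidney and 38.9% against 38.4% in heart, so in both of these organs the share lay at the background.

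The RefSeq promoter sequences (build GRCm38.p6, from 250 bases before a start to 50 after it) were then set beside the peaks. A peak overlapped the promoter sequence at 18 of the 64 listed starts (28.1%), against 8.38% of the starts of all protein-coding genes. Below are the 250 bases before the start for the 7 overlapped promoters whose peaks ranked highest, shown because a peak overlaps them. Each is written 5′ to 3′ on the strand of its gene. Capitals mark the canonical E-box CACGTG and its variant CACGTT, searched on both strands.
Ppp1r3c (chr19:36736605-36736854, minus strand): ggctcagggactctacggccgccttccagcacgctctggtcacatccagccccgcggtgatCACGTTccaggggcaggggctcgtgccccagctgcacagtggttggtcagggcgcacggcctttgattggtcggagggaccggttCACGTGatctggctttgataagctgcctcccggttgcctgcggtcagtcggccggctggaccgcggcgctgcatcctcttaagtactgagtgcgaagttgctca
Ldha (chr7:46845554-46845803, plus strand): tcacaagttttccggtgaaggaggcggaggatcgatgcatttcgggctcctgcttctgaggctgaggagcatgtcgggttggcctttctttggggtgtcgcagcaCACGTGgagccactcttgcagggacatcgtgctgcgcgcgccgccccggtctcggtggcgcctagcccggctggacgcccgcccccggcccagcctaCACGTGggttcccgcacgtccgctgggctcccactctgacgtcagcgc
Gbe1 (chr16:70313699-70313948, plus strand): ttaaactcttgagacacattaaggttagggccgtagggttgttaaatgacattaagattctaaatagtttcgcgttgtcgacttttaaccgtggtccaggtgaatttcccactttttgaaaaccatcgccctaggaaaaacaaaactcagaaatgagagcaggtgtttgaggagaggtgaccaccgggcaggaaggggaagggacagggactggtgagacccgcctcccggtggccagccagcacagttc
Pcx (chr19:4510222-4510471, plus strand): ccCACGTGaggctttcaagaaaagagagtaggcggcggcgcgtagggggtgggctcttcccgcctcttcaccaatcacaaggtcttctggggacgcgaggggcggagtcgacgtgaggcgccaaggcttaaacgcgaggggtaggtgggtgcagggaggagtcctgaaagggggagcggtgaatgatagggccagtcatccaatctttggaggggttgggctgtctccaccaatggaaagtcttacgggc
Pfkl (chr10:78009808-78010057, minus strand): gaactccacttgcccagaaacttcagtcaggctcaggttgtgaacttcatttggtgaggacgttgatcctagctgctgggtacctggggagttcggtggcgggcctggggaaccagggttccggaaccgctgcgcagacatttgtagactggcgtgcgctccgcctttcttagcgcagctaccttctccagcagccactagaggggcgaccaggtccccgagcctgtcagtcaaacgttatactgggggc
Aldoc (chr11:78322823-78323072, plus strand): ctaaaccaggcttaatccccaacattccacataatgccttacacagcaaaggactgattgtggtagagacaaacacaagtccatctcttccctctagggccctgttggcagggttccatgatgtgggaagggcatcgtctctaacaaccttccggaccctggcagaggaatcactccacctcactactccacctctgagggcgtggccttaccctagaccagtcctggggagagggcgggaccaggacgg
Pfkfb3 (chr2:11502091-11502340, minus strand): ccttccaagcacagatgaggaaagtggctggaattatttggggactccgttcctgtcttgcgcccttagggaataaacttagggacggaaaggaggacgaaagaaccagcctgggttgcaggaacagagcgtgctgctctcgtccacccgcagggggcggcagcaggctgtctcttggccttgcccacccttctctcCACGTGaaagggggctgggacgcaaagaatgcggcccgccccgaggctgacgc

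The E-boxes lay from 0 to 118 bp from the centres of the peaks that held them. Each list has peaks of a single width (liver 242, kidney 188, heart 198 bp). An E-box inside a peak therefore cannot lie far from its centre, and this range does not show that E-boxes gather at the centres. In Ppp1r3c, CACGTG began 104 bases before the start and the variant 189 bases before it, and both lay inside the peaks of all 3 organs. The variant was 20 bp from the liver, 27 bp from the kidney and 4 bp from the heart peak centre, and CACGTG was 65, 58 and 81 bp from them. In Ldha, CACGTG began 48 and 145 bases before the start. The nearer copy lay at the centre of the kidney peak, 14 bp from the heart and 21 bp from the liver centre, and the other copy lay inside the liver peak only, 118 bp from its centre. In Pfkfb3 the single CACGTG began 53 bases before an internal start, 20 bp from the liver and 24 bp from the kidney peak centre. In Pcx it began 248 bases before the start and lay inside the liver and kidney peaks, 102 bp from the liver and 18 bp from the kidney peak centre. The promoters of Gbe1, Pfkl and Aldoc held neither sequence in this window. At Pfkl only the edge of the heart peak reached the printed bases, and the liver and kidney peaks lay outside them.

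Over all 64 promoters, CACGTG was present in 12.5%, against 7.84% of the promoters of protein-coding genes. It was present in 4 of the 18 promoters overlapped by a peak (22.2%), against 31.9% of all overlapped promoters of protein-coding genes. CACGTT was present in 9.38% of the 64 promoters, against 4.68%. Among promoters overlapped by a peak it was in 1 of 18 (5.56%), against 8.7%. With 4 and 1 of 18 promoters, neither sequence can be read as rarer or commoner there than in the background. The D-box core TTATGTAA, the site of the clock output factors DBP, TEF and HLF, was in none of the 64 and in 0.894% of all promoters. CACGTG without a peak on that promoter was found at Pfkfb2, Pdk2, Fbp2 and Pfkm. A match is only a description of the letters in this window. Most peaks at these genes lie outside the promoter sequences, and their own sequence was not examined.

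Glucose enters glycolysis through the hexokinases, and GCKR is a liver protein that regulates this step. Of 5 genes in this group, 2 had a peak. Counts by role, here and below, stand beside a background of 30.7% of protein-coding genes with a peak in any list (liver 18.1%, kidney 18.0%, heart 11.5%), and the groups are small. Hk1, the hexokinase of most tissues, had 1 heart peak inside the gene (chr10:62300349-62300546, score 42, rank 613 of 2519). Gckr had 1 liver peak 544.5 bp downstream of its start (chr5:31297987-31298228, score 21, rank 4212 of 4813), near the bottom of that list. Hk2, Hk3 and Hkdc1 had none. Neither peak reached the top 10% of its list, and each was found in a single organ.

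The next steps convert glucose 6-phosphate to fructose 1,6-bisphosphate, through phosphoglucose isomerase and the phosphofructokinases, and all 4 genes of this group had a heart peak. Gpi1 encodes the isomerase. Its peaks overlapped in all organs 3.85 to 3.86 kb upstream of the start (chr7:34234075-34234316 in liver). They scored 165 in liver (rank 98), 169 in kidney (rank 42) and 110 in heart (rank 111), all within the top 10% of their lists. This region is nearer to the gene Garre1 than to Gpi1, and when each peak was given only to its nearest protein-coding gene, Gpi1 held none. Pfkl encodes the liver-type phosphofructokinase. Its liver peak scored 165 (chr10:78009272-78009513, rank 98) and the kidney peak that overlapped it scored 76 (rank 373), with centres 414.5 and 442.5 bp downstream of the start. The heart peak lay at a neighbouring position, 91.5 bp downstream of the start (chr10:78009617-78009814, score 87, rank 189), separated from the liver peak by 103 bp. Both promoter-proximal positions thus ranked in the top 10% of their lists without overlapping. Counting peaks as the same site when their centres lay within 1000 bp would make them 1 region. Pfkl also had a kidney peak beyond its far end (score 41, rank 1155), nearer to Cfap410, and a heart peak 5.88 kb upstream at the lowest score of that list (16).

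The other phosphofructokinases had weaker peaks, and those in heart only. Pfkm, the muscle type, had a heart peak 76.5 bp downstream of an internal start (score 24, rank 1321) and another 19.2 kb downstream of its nearest start (score 23, rank 1406). Pfkp, the platelet type, had a heart peak inside the gene (chr13:6633593-6633790, score 22, rank 1491). These 3 peaks lay in the lower part of the heart list, whose median score was 25.

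The bifunctional PFKFB enzymes make and remove fructose 2,6-bisphosphate, the main activator of phosphofructokinase. Pfkfb3 held the highest-ranking site of all 44 genes in each organ. The peak scored 207 in liver (chr2:11535424-11535665, rank 41 of 4813), 185 in kidney (rank 30 of 4034) and 204 in heart (rank 20 of 2519). It lay inside the gene, 18.4 kb downstream of the first start. By mean rank this region was number 23 of the 519 regions common to all organs. A second site lay on the internal start whose promoter is printed above, in liver (score 79, rank 765) and kidney (score 56, rank 686). Another, 11.2 kb upstream of that internal start, was found in kidney (score 58, rank 644) and heart (score 66, rank 315). A last kidney peak, 1.3 kb downstream of the first start, scored 15 (rank 3635). The main site was thus shared by all organs, and each of the others was missing from at least 1 list. Pfkfb1, the liver and muscle form, Pfkfb2, the heart form, and Pfkfb4 had no peak.

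Of the 11 genes of lower glycolysis, 8 had a peak, and none had a region common to all organs. The liver peak at Aldoc, an aldolase known from brain, ranked highest (chr11:78322993-78323234, score 80, rank 746) and lay 40.5 bp downstream of the start. Eno3, the muscle enolase, had a liver peak (score 63, rank 1225) and an overlapping kidney peak (score 41, rank 1155), 1.23 kb upstream of its listed start. A second liver peak there scored 43 (rank 2127). All of them also lie within Pfn1, which overlaps this position. Pkm, the pyruvate kinase of most tissues, had a heart peak 210.5 bp downstream of a start (score 30, rank 970) and a kidney peak 7.82 kb downstream (score 26, rank 2132). Pklr, the liver pyruvate kinase, had a liver peak 155.5 bp upstream of a start (score 26, rank 3576).

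The remaining peaks of lower glycolysis scored at or below the median of their lists. Pgk1, phosphoglycerate kinase, had a liver peak 247.5 bp upstream of its start (score 27, rank 3458). Aldoa, the muscle-type aldolase, and Gapdh had kidney peaks that scored 18 (rank 3164) and 23 (rank 2474). Eno1, the enolase of most tissues, had a heart peak 9.11 kb beyond the gene (score 25, rank 1257). Tpi1, Pgam1 and Pgam2 had none. No gene of this group reached the top 10% of a list.

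Lactate dehydrogenase interconverts pyruvate and lactate, with LDHA the muscle-type and LDHB the heart-type subunit. Ldha had overlapping peaks in all organs on the promoter printed above. They scored 124 in liver (chr7:46845659-46845900, rank 256), 60 in kidney (rank 604) and 74 in heart (rank 259). Their centres lay 24.5, 45.5 and 31.5 bp upstream of the start. Ldhb had 1 weak kidney peak 61.5 bp upstream of its start (score 20, rank 2878). Both subunit genes had a peak near a start, but only Ldha had peaks in liver and heart.

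Gluconeogenesis starts with pyruvate carboxylase (Pcx) and the phosphoenolpyruvate carboxykinases (Pck1 in the cytosol, Pck2 in mitochondria) and ends with fructose bisphosphatase and glucose 6-phosphatase. Liver peaks lay at 5 of 6 genes (against 18.1% of protein-coding genes), kidney peaks at 3 (against 18.0%) and heart peaks at 2 (against 11.5%), and 6 genes are too few to read an organ pattern from. Pcx had the most regions of any of the 44 genes, 5 in all. At its first start the peaks scored 120 in liver (chr19:4510004-4510245, rank 283), 91 in kidney (chr19:4510115-4510302, rank 250) and 49 in heart (chr19:4509965-4510162, rank 494). Their centres were staggered, 347.5, 263.5 and 408.5 bp upstream of the start, and the heart peak ended before the E-box. Further sites within Pcx lay 23.9 and 23.3 kb upstream of an internal start. Each had overlapping peaks in liver (scores 67 and 56) and kidney (scores 49 and 46). A liver peak (score 47, rank 1896) and a heart peak (score 28, rank 1076) elsewhere in the gene overlapped no other. This heart peak also lies within Lrfn4.

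Pck1 had peaks in liver and kidney and none in heart. The site 333.5 bp upstream of its start scored 77 in liver (chr2:173152619-173152860, rank 821) and 35 in kidney (rank 1473). A second shared site 1.1 to 1.13 kb beyond the gene's far end scored 36 in liver (rank 2621) and 19 in kidney (rank 3031). Liver peaks 4.93 kb (score 36) and 9.37 kb (score 29) upstream had no kidney partner, and the farther one is nearer to Gm40011. G6pc, the catalytic subunit of glucose 6-phosphatase, also had peaks in liver and kidney and none in heart. Its strongest was a liver peak 1.26 kb beyond the gene's far end (chr11:101379046-101379287, score 98, rank 483), which just missed the top 10% of the list. A site about 3.0 kb upstream was found in liver (score 42, rank 2202) and kidney (score 23, rank 2474). A liver peak 194.5 bp upstream of the start scored 27 (rank 3458), and a kidney peak 5.29 kb upstream scored 20 (rank 2878). At both genes the liver list held more peaks than the kidney list, and the best liver peak ranked higher in its list than the best kidney peak in its own.

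The other gluconeogenic genes had peaks near the bottom of their lists or far from the gene. Pck2 had a liver peak 9.83 kb beyond the gene (score 35, rank 2707), which is nearer to Dcaf11. Fbp1, the liver fructose bisphosphatase, had a liver peak 5.32 kb upstream (score 22, rank 4095) and a heart peak inside the gene that scored 16, the lowest score in the heart list. Fbp2, the muscle form, had none.

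**Figure D4:**
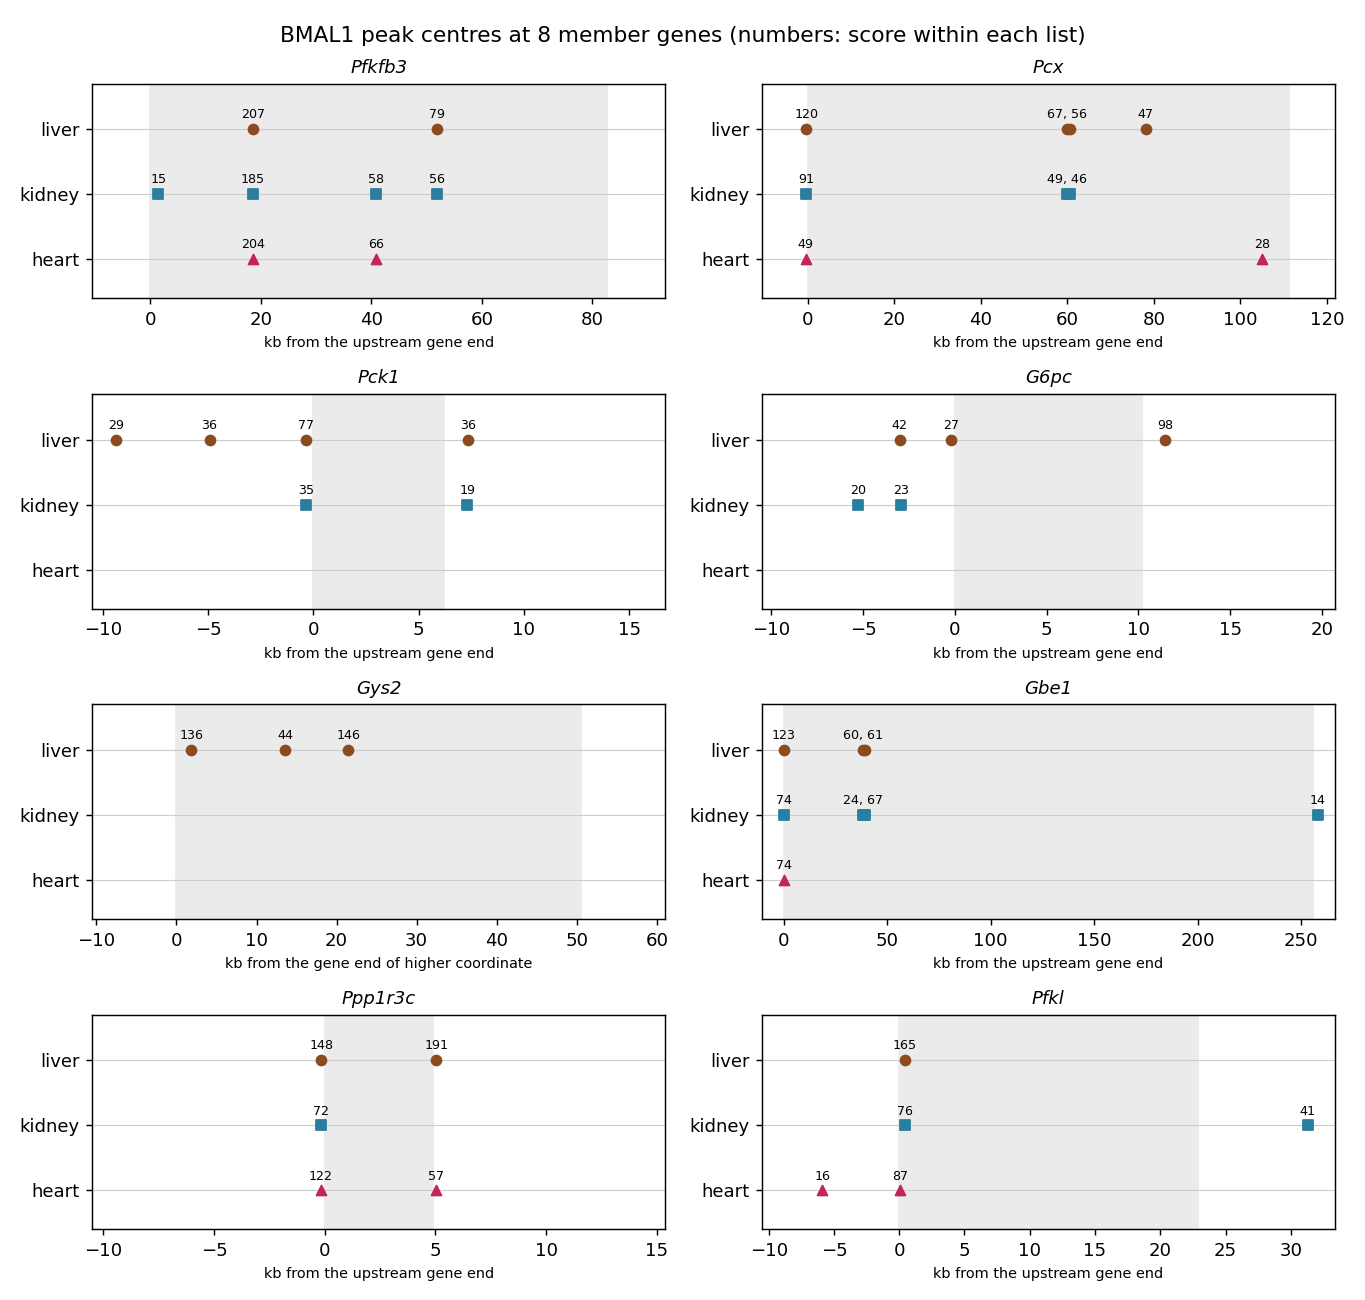
Peak centres at 8 of the genes, drawn as distance in kb from the upstream end of the gene (for Gys2, whose strand was not listed, from the end of higher coordinate); the shaded band is the gene. Each panel has a row for liver, kidney and heart, and numbers are scores, which compare only within a row's list. Pck1, G6pc and Gys2 have no heart peak, and Pfkfb3 and Ppp1r3c have peaks in all rows.

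Glycogen is built by UGP2, glycogen synthase (GYS1 in muscle, GYS2 in liver) and the branching enzyme GBE1, and broken down by the phosphorylases PYGL of liver, PYGM of muscle and PYGB of brain. Of these 7 genes, 4 had a liver peak, 2 a kidney peak and 1 a heart peak. Gbe1 had overlapping peaks of all organs at its start, with scores of 123 in liver (chr16:70313847-70314088, rank 263), 74 in kidney (rank 410) and 74 in heart (rank 259). Their centres lay 18.5, 28.5 and 22.5 bp downstream of the start. A pair of sites 38.2 and 39.3 kb inside the gene was shared by liver (scores 60 and 61) and kidney (scores 24 and 67). A kidney peak beyond its far end had the lowest score in that list (14, rank 3802).

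The liver forms of the synthase and the phosphorylase had strong liver peaks and none in the other lists. Gys2 had 3 liver peaks inside the gene, and 2 of them were in the top 10% of the list. They scored 146 (chr6:142451566-142451807, rank 164), 136 (chr6:142471174-142471415, rank 208) and 44 (rank 2062). Pygl had a liver peak 6.27 kb upstream of its start (chr12:70233829-70234070, score 111, rank 352) and a weak one inside the gene (score 24, rank 3823). Gys1, the muscle synthase, had a liver peak 260.5 bp upstream of its start (score 39, rank 2408), which lies nearer to Ruvbl2. Ugp2 had a kidney peak 30.5 bp downstream of a start (score 20, rank 2878). Pygm and Pygb had none.

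PPP1R3 subunits bring protein phosphatase 1 to glycogen, where it activates the synthase. Ppp1r3c was the second strongest liver gene of the 44. A peak just beyond the far end of the gene scored 191 in liver (chr19:36731435-36731676, rank 57) and 57 in heart (rank 394). Peaks on the promoter printed above scored 148 in liver (chr19:36736650-36736891, rank 156), 72 in kidney (rank 426) and 122 in heart (rank 87). Within the liver list the far-end peak ranked above the promoter peak, and within the heart list the promoter peak ranked above the far-end peak. Ppp1r3b, the main hepatic form, had no peak, and the nearest was a liver peak 18.3 kb away (score 34, rank 2780).

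The pyruvate dehydrogenase kinases switch off the entry of pyruvate into the citric acid cycle. Pdk1 and Pdk2 had peaks in liver and kidney. At Pdk1 the liver peaks scored 80 (chr2:71873876-71874117, rank 746) and 50 (rank 1743). The first lay 772.5 bp downstream of the nearest listed start and the other 3.11 kb downstream of a later one. The kidney peak on the promoter, 73.5 bp upstream of a start, scored 28 (rank 1966) and overlapped neither. Another kidney peak, 9.54 kb upstream and nearer to Itga6, scored 22 (rank 2591). At Pdk2 a site inside the gene, 7.63 to 7.72 kb from the nearest start, scored 24 in liver (rank 3823) and 36 in kidney (rank 1408), and a second liver peak scored 25 (rank 3702). Pdk4, the kinase known to rise in fasting, had no peak within the window.

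A second list of 58 genes of the same and adjoining pathways, chosen by function, was read in the same way. It included 8 genes of fructose and galactose entry and 8 of the pentose phosphate pathway, so it does not match the 44 genes in function. A liver peak lay at 48.3% of them (against 18.1% of protein-coding genes) and a kidney peak at 34.5% (against 18.0%). Both are close to the shares of the 44 genes. A heart peak lay at 13.8%, against 29.5% of the 44 genes and 11.5% of protein-coding genes. A region common to all organs lay at 3.45%, against 13.6% of the 44 genes and 3.09% of protein-coding genes. The second list was thus near the background in both of these shares. Among the genes with the best rank number in any list were Ppp1r3e, Mpc1, Tkfc, Gsk3a, G6pc3, Akr1b3 and Rpia. The lists differ in length, so this choice favours the short heart list. Akr1b3 entered by a heart peak of rank 628, at 24.9% of that list. Ppp1r3e, another glycogen targeting subunit, had a liver peak inside the gene (score 129, rank 236) and an overlapping kidney peak (score 57, rank 663). Mpc1, a subunit of the mitochondrial pyruvate carrier, had overlapping peaks upstream of its start in liver (score 51, rank 1693), kidney (score 89, rank 264) and heart (score 77, rank 237). G6pc3, the glucose 6-phosphatase of most tissues, had a promoter site in liver (score 69, rank 1035) and kidney (score 70, rank 449) and none in heart. Of the 13 genes grouped with glycolysis and gluconeogenesis in this list, 6 had a peak in at least 1 organ, against 30.7% of protein-coding genes.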

How the data were processed

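The samples were 18 libraries, 3 ChIP and 3 input per organ, grouped by their titles. Per the submitters' processing notes, Bowtie2, SAMtools, HOMER and the build mm10 were used; the sources used here give no versions or settings. Per the labels, replicates were pooled before peaks were called, so the lists used here give no error between animals and no read depth. The score that the authors deposited for each peak has no stated scale. Tied scores share the best rank. Genes and starts came from RefSeq tables of GRCm38.p6, the same assembly as mm10, with 17492 of 21887 protein-coding genes having a listed start. Peak centres within 1 kb of a listed start were 27.5, 39.3 and 35.8% of the liver, kidney and heart lists, and at most 4.45% after shifts of 10 or 100 kb.

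Peaks of different organs that overlapped by at least 1 bp formed a region. Shares carry exact Clopper-Pearson 95% intervals where given. Computation used Python 3.11.15, pandas 2.3.3 and scipy 1.17.1, and the window counts were tested on simulated data. The 44 genes and the lists were chosen with earlier results of these data known. All genes with a peak are named; promoters are shown by peak rank, and of the second list the 8 best-ranked genes were to be named, of which 1 is not reported here. No genome sequence was used here, so motifs were searched in promoters only.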

Additional observations from a re-analysis of the deposited data

How the results depend on the processing

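The alternatives changed the gene window, the peak threshold, the rule for shared peaks and the assignment to genes. In all 9 settings tried for the share of the 44 genes with a peak, that share exceeded the share of all protein-coding genes in each list, by 1.7 times (heart, 50 kb) to 5.55 times (liver, top 1000 peaks). The liver share of 47.7% fell to 29.5% with centres inside the gene, to 31.8% in the upper 50% of the list by score and to 29.5% in the top 1000 peaks. The kidney share of 38.6% moved to 59.1% within 50 kb and to 15.9% in the top 1000 peaks. For the 58 other pathway genes the liver share was 25.9% and the kidney share 17.2% with centres inside the gene, and the kidney share was 53.4% within 50 kb. Peaks in 1 organ only lay at 16 of the 44 genes, against 18.0% of protein-coding genes. The count was 8 of 44 in the upper 50% of each list, against 9.62%. With each list trimmed to the length of the shortest by score it was 10 of 44, against 13.4%. Fewer peaks enter the upper 50% and trimmed settings. Each count is a larger share of the 44 genes than the background percentage beside it. The other 35 of 45 alternative values stayed within the interval, or within 1.5 times the count, of the value reported. Those intervals are wide (16.8 to 45.2% for the heart share), and the settings reuse the same peaks. That tally is therefore a weak check and no independent sign of stability. Genes with a common region numbered 6 of 44, against 3.09% of protein-coding genes. They numbered 7 of 44, against 3.26%, when centres within 1000 bp counted as shared. No paired analysis was possible because the lists used here pool the replicates of each organ, and for the same reason no replicate could be left out; values of the separate libraries were not analysed here. Read depth is not known, so how it limits weak peaks was not tested.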
